A study of Mus musculus with 12 samples.

Results

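The genes described here are Irs2, Pik3cd, Nras, Araf, Map2k1 and S1pr1, which carry signals from the insulin receptor, through PI3-kinase or through Ras and the MAP kinases, or from a lipid receptor that feeds into both. They were picked by name among the genes with an m6A peak that differed between young and senescent mouse embryonic fibroblasts (MEFs), so the fold and the p-value of these peaks chose them and are given as a description, with no test. They account for 6 of 633 listed genes, 15 of 1043 listed peaks and 7 of 657 sites, where a site joins the listed peaks of 1 gene and direction whose exon blocks overlapped or touched. MEFs are primary cells grown from embryos of C57BL/6 mice, grown in the same medium with no treatment named in the labels, and taken either young, at passage 3 (P3), or senescent, at passage 9 (P9). MeRIP-seq pulls fragmented RNA down with an antibody against m6A, and 3 MeRIP and 3 input libraries were made at each passage, 12 in all. The labels do not say whether the 3 replicates of a passage came from separate embryos or cultures.

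The deposited tables hold 1 fold and 1 p-value for each peak on each transcript, and the fold is a linear ratio of the group called Treatment to the group called Control. Neither table says which passage these names stand for. P9 was taken as Treatment, since the count of peaks in each direction is the one the study gives for P9 against P3. The listed p-value is the one the authors deposited with the fold, and no p-value below was computed here. No values of single libraries were used here, so those below carry no error from replicates, and the depth of the libraries is unknown. The sources used here do not say whether the input libraries entered the fold, so more m6A per transcript and more transcript cannot be told apart. All listed higher folds were at least 1.50 and all p-values at most 0.0490, so a gene that is not listed may still differ by less than this, or may not have been tested.

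The insulin and IGF1 receptors are tyrosine kinases that phosphorylate the IRS adaptors, which in turn recruit PI3-kinase. PI3-kinase makes the lipid PIP3 at the plasma membrane, where Akt is activated. Ras GTPases, loaded with GTP below the same receptors, activate the Raf kinases, which phosphorylate MEK, which phosphorylates ERK. In fibroblasts both branches serve growth and survival, and lasting Ras or MAP kinase signalling is itself a known trigger of senescence.

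All 6 genes were listed as higher in P9 MEFs and none had a lower peak. Among all genes with a listed peak, 79.3% were listed only as higher, and among all sites 79.9%, so the direction alone does not set these genes apart. The 7 sites had listed folds from 1.51 (S1pr1) to 2.48 (Pik3cd) with a median of 1.62, against a median of 1.73 (interquartile range 1.58 to 2.06) over all 525 higher sites. Only the sites of Pik3cd lay above that median, and the other 5 sites lay below it.

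**Figure D1:**
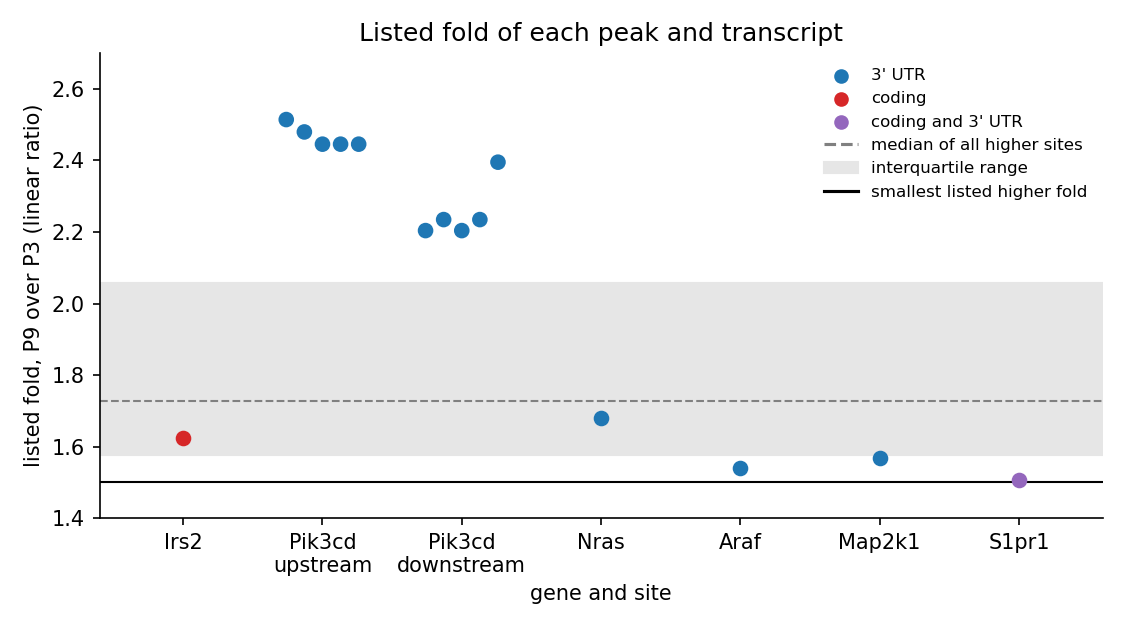
Listed fold of P9 over P3 (vertical axis, linear ratio) for each of the 15 listed peaks, by gene and site, with 1 point per transcript and the colour giving the part of the transcript. The Pik3cd points lie between 2.20 and 2.51, above the grey band (interquartile range of all 525 higher sites, 1.58 to 2.06), while the other 5 points lie between 1.51 and 1.68, below the dashed median of 1.73.

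Irs2 encodes the adaptor that passes the signal of the insulin and IGF1 receptors on to PI3-kinase. Its site lay on the minus strand of chromosome 8 of the mouse build mm10, from 11006570 to 11006870, and covered 301 nt of coding sequence in 1 exon block. The listed fold was 1.62 with a listed p-value of 0.0347, the largest among the 7 sites when each is taken at its smallest p. On other transcripts, a site of Pik3cd had listed p-values of up to 0.0380. The site was listed for transcript ENSMUST00000040514.7, which is 6323 nt long. RefSeq places Irs2 from 10984681 to 11008929 and holds 1 transcript of it, so the site began 2059 nt into the gene. It was the only one of the 7 sites that lay wholly within coding sequence, which held 23.0% of all higher sites. By p-value it ranked 401 and by fold 349 among the 525 higher sites.

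Pik3cd encodes p110delta, the catalytic subunit of a class I PI3-kinase best known from leukocytes. It had 10 listed peaks on 6 transcripts, the second largest number of any listed gene (the largest was 13), and the median over the listed genes was 1. These 10 peaks fell into 2 separate sites, both in the 3' UTR on the minus strand of chromosome 4 and both higher in P9 MEFs. The upstream site, nearer to the coding sequence, ran from 149650428 to 149650638, and the downstream site from 149649645 to 149649919. The interval between them measured 508 nt, and RefSeq places the gene from 149649168 to 149702566, which left 477 nt between the downstream site and the gene's 3' end.

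At the upstream site the listed fold was 2.51 on ENSMUST00000105688.9, 2.48 on ENSMUST00000177654.7 and 2.45 on each of ENSMUST00000122059.7, ENSMUST00000118704.7 and ENSMUST00000038859.13. At the downstream site it was 2.39 on ENSMUST00000105690.8, 2.23 on ENSMUST00000038859.13 and ENSMUST00000122059.7, and 2.20 on ENSMUST00000118704.7 and ENSMUST00000177654.7. The folds of the sites thus did not overlap, and all 5 of the upstream site were above all 5 of the downstream site. On each of the 4 transcripts listed at both sites the upstream fold was larger, by 1.09 to 1.13 times. The listed peaks of a site overlap over most of their length, so these 4 transcripts cannot be taken as independent. No test of the difference between the sites could be made.

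The p-values ran the other way. They lay between 0.0257 and 0.0380 at the upstream site and between 0.00589 and 0.0110 at the downstream site, and the upstream p was the larger on all 4 transcripts listed at both. The upstream peak was also shorter, at 180 nt on 4 transcripts and 211 nt on ENSMUST00000177654.7, against 269 to 271 nt downstream. Over all higher sites, 27.8% had a fold of at least 2 on some transcript, which both Pik3cd sites did, and 32.0% had a p of at most 0.01, which only the downstream site did, on 3 of its 5 transcripts.

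The shortest of the 6 transcripts, ENSMUST00000105688.9 with 4335 nt, was listed at the upstream site alone, and the longest, ENSMUST00000105690.8 with 4921 nt, at the downstream site alone. Each of them had the largest fold at its site. A transcript absent from a site may have missed the threshold on fold or p there, and its value is not known. It may also lack that stretch of sequence, which could not be checked because no transcript models were used here. The largest fold was 1.09 times the smallest at the downstream site and 1.03 times at the upstream site. Of the 236 sites listed for several transcripts, 46 had a ratio at least as large as the downstream site and 102 one at least as large as the upstream site (median 1.02). When each site was taken from the transcript with the smallest p, the folds of the sites differed 1.04-fold, less than the folds of the downstream site differed among its own transcripts. The transcript with the smallest p was not the same at both sites.

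**Figure D2:**
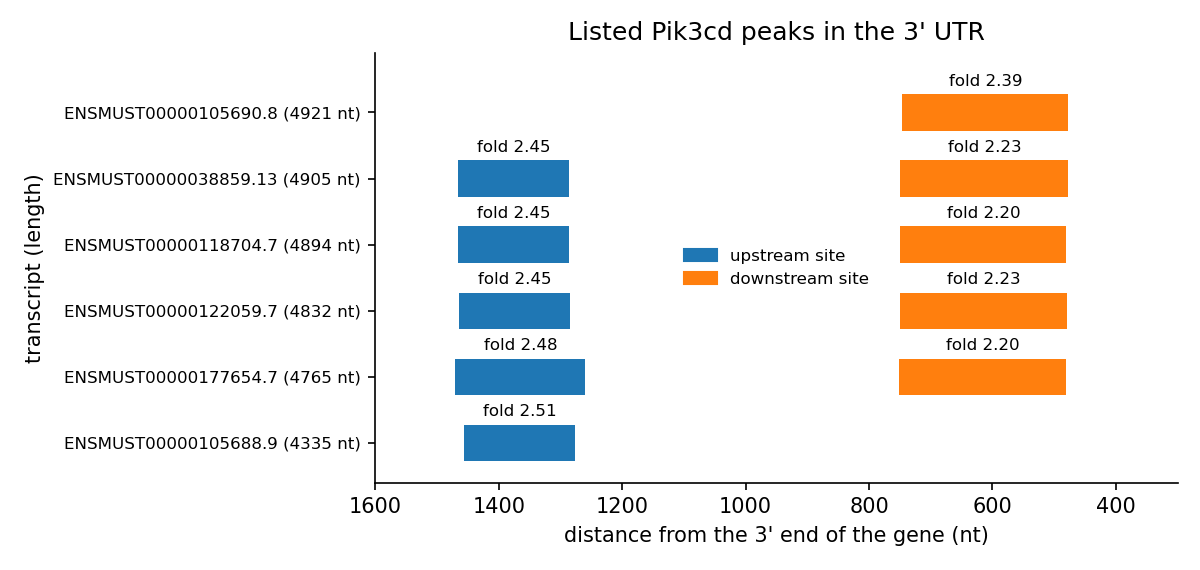
Listed Pik3cd peaks on 6 transcripts, ordered by transcript length, as bars along the distance from the RefSeq 3' end of the gene (horizontal axis, nt, 5' on the left), each with its listed fold. The upstream bars (blue) carry folds of 2.45 to 2.51 and the downstream bars (orange) 2.20 to 2.39, and 4 transcripts carry both.

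Pik3cd was 1 of 13 genes with several higher sites, of 511 genes with any. Only 3 of the 13, Pik3cd, Peg10 and Tbl1xr1, had all of these sites in the 3' UTR alone. Within these genes the largest site fold was between 1.02 times (Rapgef2) and 1.79 times (Alms1) the smallest, with a median of 1.11. Pik3cd had the second smallest ratio, at 1.04, with each site taken from its transcript with the smallest p. For Pik3cd these were different transcripts, and on the 4 transcripts listed at both sites the ratio was 1.09 to 1.13. By fold its upstream and downstream sites ranked 74 and 84 of 525 higher sites, and by p-value 334 and 124.

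Nras encodes a Ras GTPase, which switches the Raf kinases and PI3-kinase on while it is bound to GTP. Its site lay in the 3' UTR, between 103064975 and 103065245 of chromosome 3 (plus strand, 271 nt), on transcript ENSMUST00000029445.12 of 4470 nt. The listed fold was 1.68 with a listed p-value of 0.00646, and it was the largest fold outside Pik3cd. RefSeq places Nras from 103058285 to 103067914, so 2669 nt of the gene lay beyond the site, farther from the 3' end than any other 3' UTR site described here. Hras, another classical Ras gene, was not listed.

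Araf encodes A-Raf, 1 of the Raf kinases that Ras activates. Its site was in the 3' UTR, between 20860131 and 20860429 of chromosome X (plus strand, 299 nt), on transcript ENSMUST00000001155.10 of 2358 nt, with a listed fold of 1.54 and a listed p-value of 0.0107. A further 92 nt separated it from the 3' end of Araf, which RefSeq places from 20797707 to 20860521. The span of the neighbouring gene Syn1 begins at 20860511, so 81 nt lay between the site and that gene. The paralog Braf was not listed.

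Map2k1 encodes MEK1, the kinase that Raf phosphorylates and that phosphorylates ERK. Its site was the shortest of the 7, with 120 nt in the 3' UTR on the minus strand of chromosome 9, from 64185770 to 64185889. It was listed for transcript ENSMUST00000005066.8 of 2436 nt with a fold of 1.57 and a listed p-value of 0.0174. RefSeq places Map2k1 from 64185769 to 64253605, so the site reached to within 1 nt of the gene's 3' end. Map2k2 and Mapk3, which encode MEK2 and ERK1, were not listed.

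S1pr1 encodes a G protein-coupled receptor of the lipid sphingosine 1-phosphate, which couples to Gi and through it to PI3-kinase and to Ras and ERK. Its site was the longest of the 7, with 568 nt that spanned the stop codon, from coding sequence into the 3' UTR, on the minus strand of chromosome 3 from 115711418 to 115711985. It was listed for transcript ENSMUST00000055676.3 of 3046 nt with a fold of 1.51. This was the smallest fold of the 7 and only just inside the list, with 15 of 525 higher sites below it and the smallest listed higher fold at 1.50. Its p-value of 0.00355 was nevertheless the smallest of the 7 and ranked 92 of 525. RefSeq places S1pr1 from 115710433 to 115715055, and 985 nt of the gene lay beyond the site. The related receptor genes S1pr2 and S1pr3 were not listed.

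**Figure D3:**
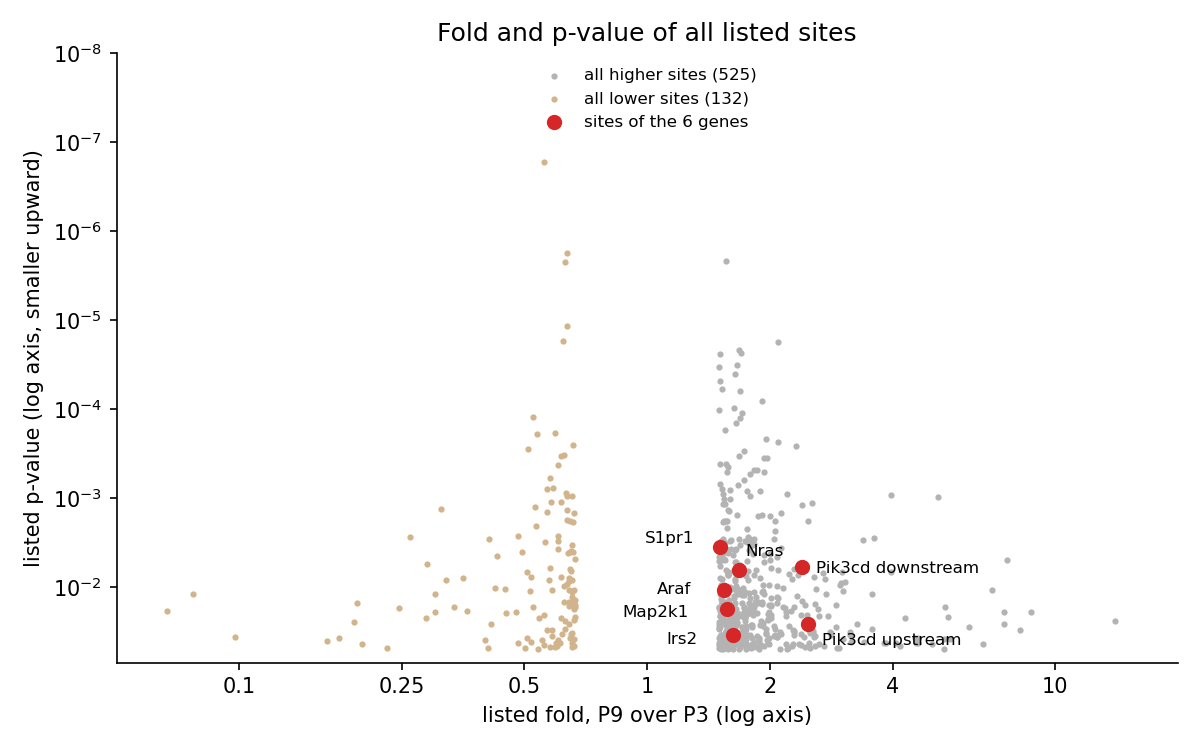
Listed p-value (vertical axis, log scale, smaller upward) against listed fold (horizontal axis, log scale) for all 657 sites, with the 7 sites of the 6 genes in red, and 5 sites outside the axes not shown. The empty band in the middle holds folds under the threshold of the list. S1pr1 lies at its edge with the smallest p of the 7 (0.00355), and the Pik3cd upstream site combines the largest fold (2.48) with a p of 0.0257.

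Size and p-value therefore ordered the 7 sites differently. None of them had a p of at most 0.001, which 9.14% of all higher sites had, and 3 of them (S1pr1, the downstream site of Pik3cd and Nras) had a p of at most 0.01, which 32.0% had. The 7 sites had in common that each lay in 1 exon block, as did 80.4% of all higher sites. The 3' UTR was touched by 6 of 7 sites, against 71.4% of all higher sites, and 5 of 7 lay in it alone, against 52.8%. No site touched the 5' UTR, which 5.52% of higher sites did. The 5 sites in the 3' UTR alone lay from 1 to 2669 nt short of their gene's 3' end (median 477), and the 269 higher sites of 1 block in the 3' UTR with a RefSeq gene had a median of 240 nt (interquartile range 0 to 1857). The lengths of the 7 sites had a median of 271 nt, and those of all higher sites 269 nt. No other RefSeq gene overlapped any of the 7 sites.

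The rest of these pathways was read from 7 lists of 160 genes in all, drawn up from textbook members. Of these, 12 had a listed peak, 11 of them only higher. Without the 6 genes above, which are in the lists by choice, 6 of 154 genes were listed, 5 of them only higher, and 79.3% of all listed genes were only higher. Among 22 ligands, receptors and adaptors of insulin and IGF, Irs2 was joined by Gab2, a docking protein for PI3-kinase and the phosphatase Shp2, with a fold of 1.71 (listed p-value 0.0282) across coding sequence and 3' UTR. Irs1, Insr and Igf1r were not listed. Pik3cd was the only one of 14 PI3-kinase subunits with a listed peak, and Pik3ca and Pik3cb, whose products are the broadly expressed class I catalytic subunits, had none.

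Of 34 effectors and phosphatases of the PI3-kinase branch, 1 was higher in P9 MEFs. Phlpp1, a phosphatase that acts on Akt, had a higher site in coding sequence and 3' UTR, with a fold of 1.56 (listed p-value 0.00372). Akt1 and Akt2 were not listed.

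Among 31 Ras GTPases and regulators, Nras was joined by Rras2, a Ras-related GTPase that also activates PI3-kinase, with a fold of 1.63 (listed p-value 0.0132), and by Rasa3, a GTPase-activating protein that turns Ras and Rap off, with a fold of 1.78 (listed p-value 0.0195). Both sites were in the 3' UTR. Of 28 genes of the Raf, MEK and ERK level, Araf and Map2k1 were the only ones listed. Of 16 further MAP2 kinases and MAP kinases, among them Mapk14 (p38) and Mapk8 (JNK), none was listed. Of 15 genes of sphingosine 1-phosphate, S1pr1 was joined by Sphk2, a kinase that makes this lipid, with a 3' UTR site at a fold of 1.52 (listed p-value 0.0115). The listed genes thus included both activators and inhibitors of the PI3-kinase and Ras branches, and the 5 higher sites outside the 6 genes had folds from 1.52 to 1.78 and all touched the 3' UTR. The sources used here do not give how many of the 160 genes were tested, so a share of listed genes cannot be set against the rest of the transcriptome.

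**Figure D4:**
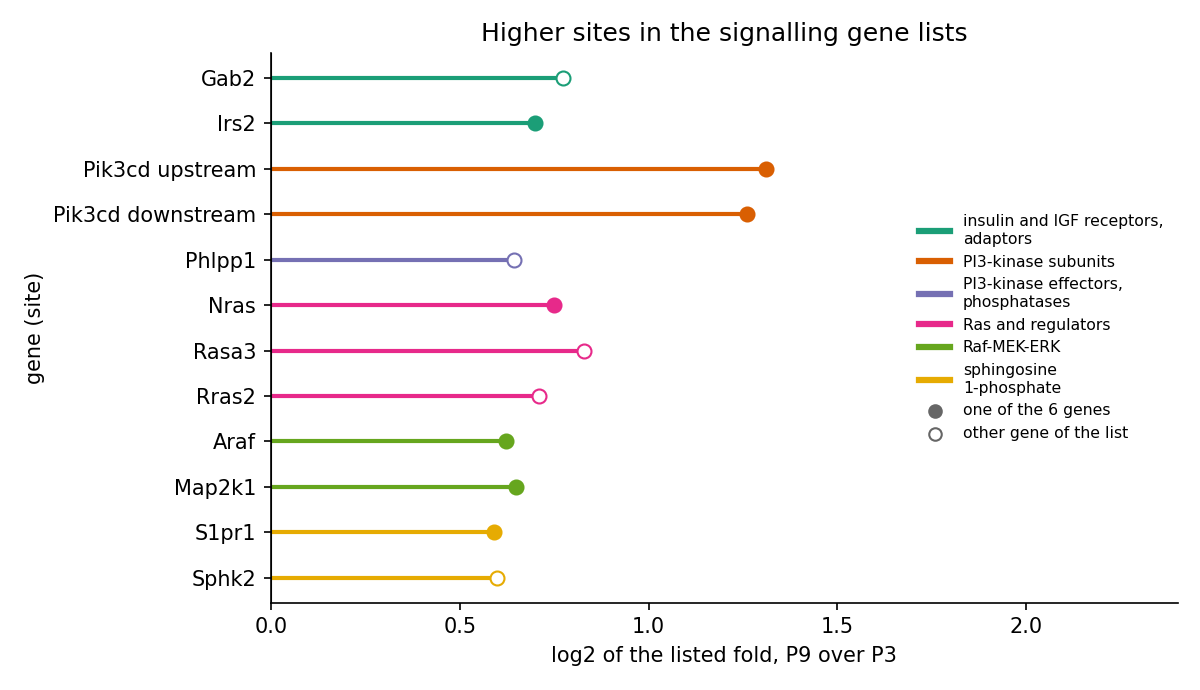
Log2 of the listed fold of P9 over P3 (horizontal axis) for the 12 higher sites of the 7 signalling lists, coloured by list, with filled points for the 6 genes and open points for the other listed genes. The 2 sites of Pik3cd reach farthest to the right, and the other 10 sites have folds from 1.51 to 1.78.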

How the data were processed

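MeRIP-seq was performed on MEFs at P3 and P9. The authors deposited a linear fold (ratio) of Treatment over Control for each peak and transcript. The deposited p-values belong to the same comparison, and the sources used here name neither its test nor any adjustment. The deposited tables hold nothing but such compared peaks, and the length of each transcript in nt. The labels name the build mm10. No source used here gives the aligner or the peak caller. Deposited starts count from 0 and were converted to count from 1.

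All 1043 listed folds and p-values were found to be rounded to 3 significant digits on the log2 and log10 scales (relative tolerance 1e-05 for folds and 0.0001 for p-values), so equal values on different transcripts are equal only to this rounding. The length of 87.0% of listed peaks, and of all 15 described here, was within 2 nt of a multiple of 30 nt, so the ends of a site are known no more closely than that step.

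Listed peaks of 1 gene, direction and strand whose exon blocks overlapped or touched were merged into sites, and the fold of a site is that of its transcript with the smallest p unless a range is given. Merging was run on simulated peaks, with sites farther apart than those of Pik3cd and peaks of the same site shifted by only a few nt. Correct merging was fixed by that setting, so the run does not show how closer sites or more varied peaks are merged. RefSeq on GRCm38.p6 gave the gene spans, and all 6 genes and all 160 list genes matched by symbol. No sequence of the sites was read, because no genome sequence was used here. The genes and lists were chosen with earlier results of these data known. The genes named are the 6, every list gene with a listed peak and those with the nearest folds; others, such as the unlisted relatives and the genes with several sites, were chosen after their values were seen. Some genes these rules would name are not reported here. Alternatives changed the unit, the thresholds, the transcript and the place. Python 3.11.15, numpy 2.4.6, pandas 2.3.3 and matplotlib 3.10.9 were used.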

Additional observations from a re-analysis of the deposited data

How the results depend on the processing

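The 7 sites were 15 when each listed peak was counted and 14 when peaks with the same start and end were counted once, because the Pik3cd sites are each listed for 5 transcripts. They remained 7 when whole intervals were merged, and were 2 at a fold of at least 2, 3 at a p of at most 0.01 and 0 at a p of at most 0.001. The fold of the downstream Pik3cd site was 2.39 on the transcript with the smallest p, 2.20 on that with the largest p, which also had the smallest fold, and 2.25 as a geometric mean. That of the upstream site was 2.48, 2.45 on the transcripts with the largest p and the smallest fold, 2.51 at the largest fold, and within the spread over transcripts as a geometric mean. The other 5 sites have 1 listed transcript, so no choice of transcript could move them. With the 3' UTR placed before coding sequence, 6 sites in place of 5 were in the 3' UTR. The 11 higher genes of the signalling lists became 20 listed peaks, or 4 genes at a p of at most 0.01. No paired analysis was possible because the deposited values are not given per library and no test was fitted, and no library could be left out. Motif counts and placing by transcript models were not run, as neither a genome sequence nor transcript models were used here.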

Other observations

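Among 18 genes that write, erase or read m6A, such as Mettl3, Fto and Ythdf2, none had a listed peak. Of 31 markers in 3 lists, of fibroblasts, leukocytes (where Pik3cd is best known) and endothelial cells (where S1pr1 is best known), none was listed either. The tables hold only peaks that differed, so these counts of 0 give no level, and the labelled cell type could not be checked against its markers.

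Sites with nearly the same fold as those of the 6 genes had very different p-values. Map2k1 shared its fold of 1.57 with Dnmbp, which encodes a guanine nucleotide exchange factor of Cdc42, but its p-value was 0.0174 against 0.00182. Nras shared its fold of 1.68 with Commd5, with p-values of 0.00646 and 0.000331. The nearest fold below that of S1pr1 belonged to the stress granule gene G3bp1, at 1.51 with a listed p-value of 2.4e-05. The chemokine gene Cxcl12 lay just below the upstream Pik3cd site, at 2.46 with a listed p-value of 0.0240.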
